A study of Homo sapiens with 6 samples.

Results

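Integrin and laminin chains are the receptor and ligand subunits through which a cell holds its basement membrane. The 38 genes described here were taken by symbol from the 27192 genes listed in the count tables: 26 integrin chains (18 α and 8 β) and 12 laminin chains (5 α, 4 β and 3 γ). The rule reads the symbol and no measured value, although it was set with earlier results of these data known.

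The cells were of the U87 line, which is an established line of human glioblastoma. PolyA RNA was sequenced in 3 libraries of cells given siGL2, a nonspecific control siRNA, and in 3 libraries of cells given a combination of 2 siRNAs against the long noncoding RNA LINC00152. Every culture was transfected 2 times with Lipofectamine RNAiMAX, 24 h apart, and was collected 24 h after the last transfection. The comparison asks how the RNA of U87 cells differed when LINC00152 was depleted. Both groups are the same cell line with the same reagent and schedule, and the 2 siRNAs were not given separately. The libraries of a group carry the letters A, B and C, and nothing in the labels says that they came from separate cultures. The p-values therefore cover the spread between these 6 samples only, and that spread may be technical.

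An integrin is a pair of 1 α and 1 β chain that spans the membrane. The α chain largely sets which matrix protein is bound, and the tail of the β chain carries the signal to talin, kindlin and the focal adhesion kinases. A laminin is a cross-shaped trimer of 1 α, 1 β and 1 γ chain. Its α chain holds the sites that integrins bind, while the short arms of the 3 chains join the laminins into a sheet. Glioblastoma cells migrate along vessel basement membranes, and integrins of the α3, α6, αV and α5 kinds have been studied as their receptors.

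Total counts were 41963120 to 46234763 per library, and 14078 genes had enough counts to be tested. LINC00152 itself had 608 to 776 counts with siGL2 and 109 to 114 counts with siLINC00152, and it fell by 2.51 ± 0.09 (SE) on the log2 scale. All 7 markers of mesenchymal glioma, vimentin and CD44 among them, were at 1 CPM (counts per 1e6, scaled by TMM) or more, and they summed to 23479 to 23830 CPM with siGL2 and 23947 to 24663 CPM with siLINC00152. Of these 7, 4 fell (VIM by 0.39 on the log2 scale, CD44 by 0.31, CHI3L1 by 0.61 and LGALS1 by 0.34) and 3 rose, TGFBI the most (0.84, from 3453 to 6194 CPM). The astroglial filament gene GFAP was at 0.154 ± 0.104 CPM with siGL2 and the astrocyte water channel AQP4 at 0. Of 7 leukocyte markers only CD68 reached 1 CPM, with AIF1 and TYROBP at 0. CD68 fell by 0.15 on the log2 scale, and CD14 rose by 1.71, from 0.114 to 0.374 CPM. The epithelial markers summed to 5.35 to 5.90 CPM with siGL2 and 4.02 to 5.58 CPM with siLINC00152. Of those, KRT8 fell by 0.36 and EPCAM did not pass. The summed markers of smooth muscle and pericytes went from at most 51.0 CPM in each control to 74.1 to 79.9 CPM, with MYH11 at 0. Those of astroglia were at 471 to 473 CPM and then at 232 to 245 CPM, mostly GJA1, a gap junction gene (427 and then 206 CPM). The endothelial markers summed to 8.68 to 9.60 and then 3.83 to 4.19 CPM, with KDR at 5.35 and then 1.22 CPM. Of these 6 markers 3 fell (KDR, PECAM1 and TEK) and 1 rose, VWF, from 0.334 to 0.724 CPM (log2 fold change 1.10). The markers of neurons and oligodendrocytes summed to 83.9 to 84.6 and then 61.4 to 67.0 CPM, with MOG at 0. Most of that sum was SNAP25, which fell (63.7 and then 42.8 CPM), as did SYP. MAP2 did not pass (18.1 and then 19.1 CPM). The part of these lists in the results was not tested. Both groups are the same cell line, so these sums do not count cell types. In bulk RNA, fewer cells that express a gene and less RNA per cell cannot be told apart. Library siGL2 A stood somewhat apart: the chi-square per degree of freedom was 10.9 and 13.7 between it and the other controls, and 2.91 between those. It was the highest control for 21 of the 28 tested chains and for 37.8% of all tested genes. Among the depleted libraries the chi-square per degree of freedom was 5.79 and 5.23 between siLINC00152 A and the others, and 3.07 between those.

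Of the 38 chains, 28 were tested, and 22 of them passed edgeR's quasi-likelihood test at an adjusted p of 0.05, 10 higher and 12 lower after LINC00152 depletion. Across all 14078 tested genes 64.3% passed, with 32.2% higher and 32.2% lower, so most genes of this cell line passed at this depth. Of the tested chains, 14 passed with at least a 1.5-fold change, against 20.0% of all tested genes, and the median size of the log2 fold change was 0.58, against 0.28 for all tested genes. The 3 siGL2 and 3 siLINC00152 values did not overlap for 22 of the 28 chains, and for 67.7% of all tested genes. By family, 12 of 18 tested integrin chains and 2 of 10 tested laminin chains passed at 1.5-fold or more. The median log2 fold change was -0.08, beside -0.00 for all tested genes.

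**Figure D1:**
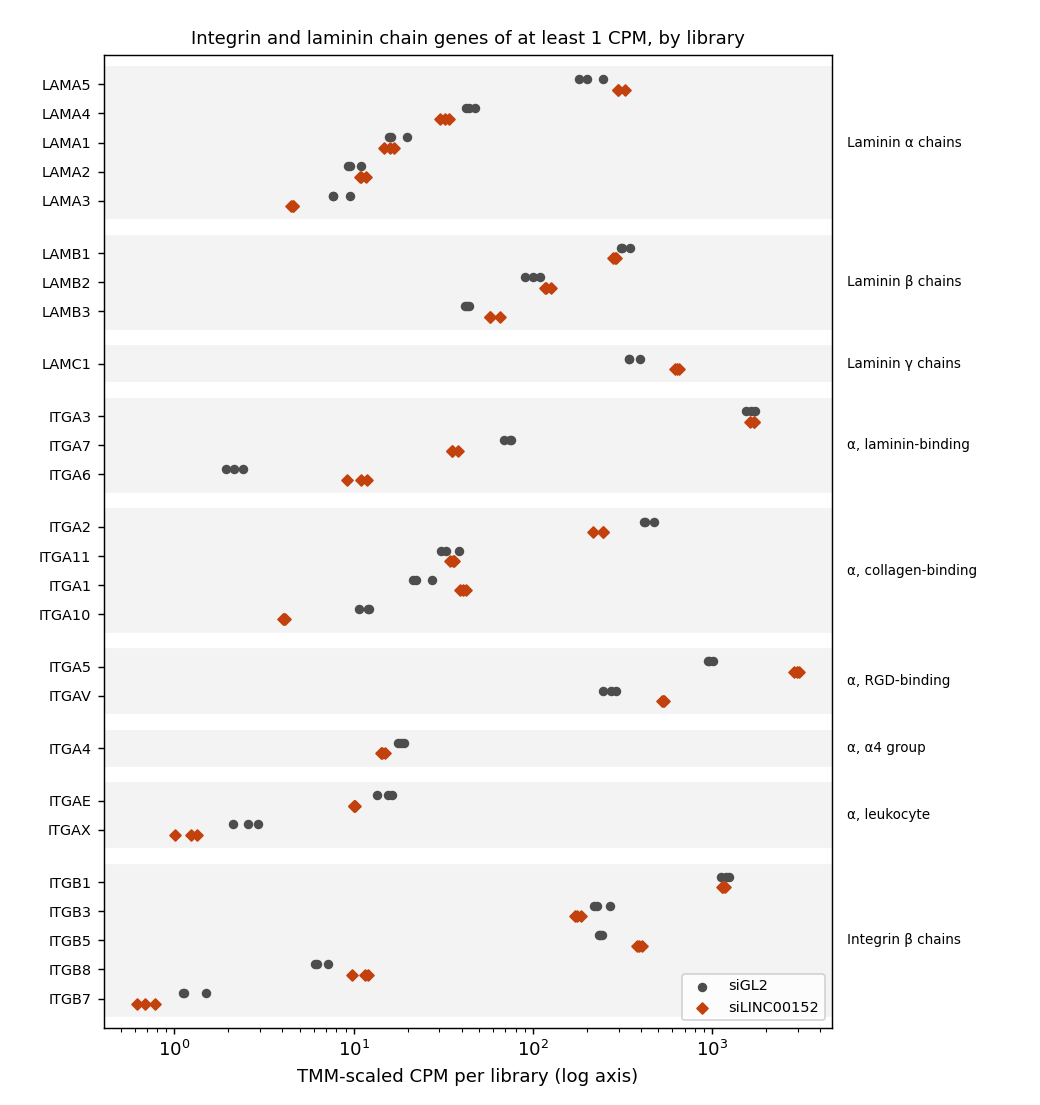
Each row is 1 chain gene described here with a mean of at least 1 CPM in either group, and each point is 1 library, with TMM-scaled CPM on a log axis and siGL2 as grey circles and siLINC00152 as orange diamonds. The points of ITGA5, ITGA6, ITGAV and LAMC1 with siLINC00152 lie to the right of every control, those of ITGA10, ITGA7 and ITGA2 lie to the left, and those of ITGA3 and ITGB1 lie on top of the controls.

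The laminin chains of this cell line were counted first, since they make the ligand. Per kilobase of exon, LAMC1 (42.9 CPM per kb with siGL2) and LAMB1 (39.8 CPM per kb) were the most abundant laminin chains, followed by LAMA5 (14.6) and LAMB2 (14.5). LAMC1 encodes γ1, the γ chain of most laminins, and it lies on chromosome 1 from 183023460 to 183145592 (GRCh38, plus strand). Its level was 395, 345 and 342 CPM in siGL2 libraries A, B and C, and 639.6, 617 and 653 CPM in siLINC00152 libraries A, B and C. The log2 fold change was 0.82 ± 0.05 (SE, adjusted p = 2.41e-11), which was the largest change of any laminin chain that rose, and the groups did not overlap.

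The microRNA-29 family, known to repress many matrix genes, is defined by the seed printed in capitals (bases 2 to 8). The 3 mature forms in RefSeq share it, and they are shown because the word it pairs with, TGGTGCT, occurs in the 3′ UTRs of LAMC1, which rose, and of ITGA2, an integrin chain that fell. The word was looked at because of earlier results of these data, and no microRNA was measured.
hsa-miR-29a-3p: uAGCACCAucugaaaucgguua
hsa-miR-29b-3p: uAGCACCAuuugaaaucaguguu
hsa-miR-29c-3p: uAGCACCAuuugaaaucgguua
The matches below are 23 bases of the GENCODE 29 transcripts (GRCh38, plus strand, 5′ to 3′) with the word in capitals. LAMC1 is at chr1:183144245-183144267 and ITGA2 at chr5:53092681-53092703.
LAMC1: tgacacacTGGTGCTattaatta
ITGA2: acagctagTGGTGCTggtgtgta
Among the tested chains the word was in 1 of 10 that were higher, in 2 of 12 that were lower and in 2 of 6 that did not pass. Of 12199 tested genes with an annotated 3′ UTR, 14.3% held it. A match to a word describes the letters and is not a measured site.

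Among the laminin α chains, LAMA5 rose and LAMA4 and LAMA3 fell, while LAMA1 and LAMA2 did not pass. LAMA5 encodes α5, a chain of vessel and epithelial basement membranes that α3β1 and α6β1 integrins bind strongly (chromosome 20, 62307955 to 62367312, minus strand). It was at 245, 199 and 180.3 CPM with siGL2 and at 327, 297 and 298 CPM with siLINC00152, a log2 fold change of 0.56 ± 0.11 (adjusted p = 0.00213). Control A was the highest control, and it stayed below the lowest depleted library.

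LAMA4 encodes α4, the chain of laminins made by endothelial and mesenchymal cells and also by gliomas (chromosome 6, 112108760 to 112254939, minus strand). It was at 47.4, 42.5 and 44.1 CPM with siGL2 and at 34.1, 30.3 and 32.3 CPM with siLINC00152. It fell by 0.47 ± 0.06 on the log2 scale (adjusted p = 4.2e-07), and the groups did not overlap. LAMA3, the α chain of the epithelial anchoring laminin, was at 9.56, 7.71 and 7.65 CPM with siGL2 and at 4.6, 4.45 and 4.58 CPM with siLINC00152, a log2 fold change of -0.87 ± 0.10 (adjusted p = 1.49e-07).

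LAMA1, the α chain of the early embryo, was at 17.2 ± 2.17 CPM with siGL2 and 15.8 ± 0.978 CPM with siLINC00152 (log2 fold change -0.12, 95% confidence interval -0.29 to 0.04, adjusted p = 0.191). Part of its exons (11.1%) overlap AP002409.1 on the opposite strand. LAMA2, the α chain of muscle and peripheral nerve, was at 9.97 ± 0.898 and 11.2 ± 0.441 CPM (log2 fold change 0.17, interval 0.01 to 0.33, adjusted p = 0.0636). Without siGL2 A, LAMA2 passed (log2 fold change 0.24, adjusted p = 0.0079).

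The laminin β chains moved by less than 1.5-fold. LAMB1, the β chain that is most widespread, was at 346, 314 and 312 CPM with siGL2 and at 279, 287 and 289.6 CPM with siLINC00152 and fell by 0.19 ± 0.05 on the log2 scale (adjusted p = 0.0017). LAMB2, the β chain of synapses, kidney and mature vessels, rose by 0.27 ± 0.06 (adjusted p = 0.000549), from 99.8 ± 9.39 to 119.9 ± 5.50 CPM. LAMB3, the β chain of the epithelial anchoring laminin, was at 44.1, 42.9 and 41.8 CPM with siGL2 and at 65.5, 57.7 and 57.2 CPM with siLINC00152. It rose by 0.49 ± 0.06 (adjusted p = 1.66e-07), while LAMA3, the α chain of the same trimer, fell.

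LAMA3 and LAMB3 were the only chains among the 26 with a RefSeq promoter entry that held the AP-1 motif TGANTCA (read on both strands) in the 250 bases before a listed start. Across 35116 RefSeq promoters 6.57% held it. The 2 stretches of 150 bases are shown because these chains share a trimer and the motif but moved in opposite directions. LAMA3 is at chr18:23872870-23873019 (plus strand) and LAMB3 at chr1:209651375-209651524 (minus strand), both GRCh38.p14. Capitals mark the AP-1 motif and, in LAMB3, also the GC box GGGCGG.
LAMA3: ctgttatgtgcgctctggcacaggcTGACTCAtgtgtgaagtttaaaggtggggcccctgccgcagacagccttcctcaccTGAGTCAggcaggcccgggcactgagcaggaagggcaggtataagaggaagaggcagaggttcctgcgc
LAMB3: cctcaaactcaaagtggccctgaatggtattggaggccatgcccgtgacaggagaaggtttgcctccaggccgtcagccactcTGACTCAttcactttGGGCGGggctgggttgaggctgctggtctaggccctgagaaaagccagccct
The GC box (both strands) was in a listed promoter of 8 of the 10 higher chains with an entry and of 3 of the 8 lower chains with one, against 42.6% of the 35116 single promoters. Several of the higher chains have more than 1 listed promoter (16 windows for 10 chains, against 8 windows for 8 lower chains).

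By length-scaled level, LAMA5 made up 69.1 ± 1.96% (SD, n = 3) of the summed laminin α chain RNA with siGL2 and 80.6 ± 0.412% with siLINC00152. LAMA4 made up 18.5 ± 1.66% and then 10.4 ± 0.279%. The LAMA5 share was 70.8, 69.4 and 66.9% in the 3 controls and 81.0, 80.7 and 80.2% in the 3 depleted libraries. Accordingly the ratio of LAMA5 to LAMA4 was 3.76 ± 0.437 with siGL2 and 7.72 ± 0.232 with siLINC00152. Its size depends on the length used, as does that of the shares. With the longest annotated transcript as the length, this ratio was 2.66 with siGL2 and 5.46 with siLINC00152. With no length it was 4.64 and 9.54. Among β chains the LAMB1 share was 62.7% and then 53.6%, LAMB2 was 22.9% and then 26.7%, and LAMB3 was 14.4% and then 19.6%. None of these groups overlapped, and the exact two-sided permutation test over libraries gave p = 0.1 for each, the smallest that 3 against 3 allows.

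**Figure D2:**
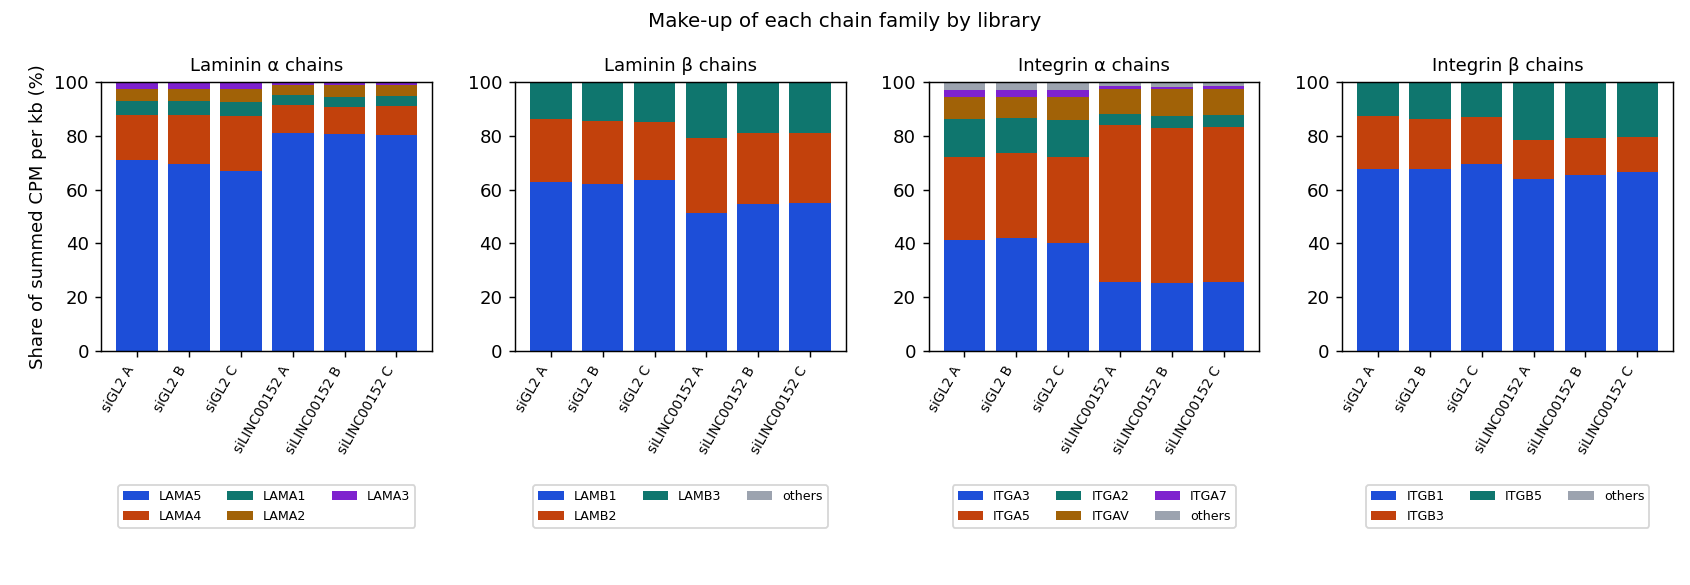
Each bar is 1 library, and its colours give the percent of the summed length-scaled level (CPM per kb of exon) of laminin α, laminin β, integrin α and integrin β genes, with minor chains pooled as others. LAMA5 takes 80.2 to 81.0% of the laminin α bars with siLINC00152, and ITGA5 takes the place of ITGA3 as the largest part of the integrin α bars.

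Of 14 laminin trimers known from protein work, 11 had all 3 chains at 1 CPM or more. In α5β2γ1 all 3 chain genes rose. In α5β1γ1 the α and γ chains rose and LAMB1 fell. In α4β1γ1 the α and β chains fell while LAMC1 rose. RNA does not show which chains were assembled.

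Of the laminin-binding α chains, the most abundant did not pass. ITGA3, the α chain of α3β1 (chromosome 17, 50055968 to 50090481, plus strand), was at 1728, 1648 and 1542 CPM with siGL2 and at 1709, 1624 and 1704 CPM with siLINC00152. The log2 fold change was 0.03 (95% confidence interval -0.06 to 0.13, adjusted p = 0.539), and its sign turned to -0.03 with library size as the only scaling and to -0.01 without siGL2 C. The groups overlapped.

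ITGA6 and ITGA7, the other laminin-binding α chains, moved in opposite directions. ITGA6, an α chain that has been used to enrich glioblastoma stem-like cells, was at 2.40, 1.94 and 2.16 CPM with siGL2 and at 9.13, 11.9 and 10.9 CPM with siLINC00152 (chromosome 2, 172427354 to 172506282, plus strand). The log2 fold change was 2.30 ± 0.11 (4.92-fold, adjusted p = 5.5e-13), the largest of the 28 tested chains. It rested on 84 to 104 counts per control library and 375 to 501 per depleted library, and per kilobase ITGA6 remained a minor chain, at 0.332 and then 1.63 CPM per kb.

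ITGA7, the laminin-binding α chain of muscle (chromosome 12, 55684568 to 55716043, minus strand), was at 75.7, 74.1 and 69.0 CPM with siGL2 and at 38.0, 35.5 and 35.5 CPM with siLINC00152. It fell by 1.01 ± 0.05 on the log2 scale (adjusted p = 9.93e-13). The ratio of ITGA7 to ITGA6 per kilobase was 34.8 ± 3.75 with siGL2 and 3.55 ± 0.635 with siLINC00152, so ITGA7 was the more abundant of the pair in all 6 libraries. ITGB4, the β chain that joins ITGA6 in hemidesmosomes, had 24 to 36 counts per control library and 21 to 26 per depleted library (log2 fold change -0.22, interval -0.71 to 0.27, adjusted p = 0.437).

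ITGA5 had the largest change of the abundant chains. It encodes α5, which with ITGB1 forms the main fibronectin receptor (chromosome 12, 54395261 to 54419460, minus strand). It was at 1008, 961 and 946 CPM with siGL2 and at 3043, 2845 and 2981 CPM with siLINC00152. The log2 fold change was 1.61 ± 0.05 (3.04-fold, adjusted p = 7.82e-17). Per kilobase it went from 128 to 390.2 CPM per kb, from the third to the first place among the 38 chains. Its share of integrin α chain RNA was 31.6 ± 0.456% with siGL2 and 57.9 ± 0.665% with siLINC00152. The share of ITGA3 was 41.1 ± 0.860% and then 25.4 ± 0.110%, although the level of ITGA3 itself did not pass the test.

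ITGAV encodes αV, which joins several β chains to bind vitronectin, fibronectin, osteopontin and latent TGF-beta (chromosome 2, 186590065 to 186680901, plus strand). Its level was 289, 246 and 272 CPM with siGL2 and 526, 534 and 539.7 CPM with siLINC00152. It rose by 0.99 ± 0.05 on the log2 scale (adjusted p = 1.08e-12), and the 3 depleted libraries lay close together above all controls.

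The β chains that pair with αV did not follow it as a group. ITGB5, the vitronectin receptor chain β5, was at 242, 237 and 234 CPM with siGL2 and at 407, 389.6 and 382 CPM with siLINC00152, a rise of 0.72 ± 0.04 (adjusted p = 8.76e-12). ITGB8, whose pair with αV releases active TGF-beta, was at 6.11, 6.25 and 7.15 CPM with siGL2 and at 9.74, 11.9 and 11.5 CPM with siLINC00152, a rise of 0.77 ± 0.09 (adjusted p = 2.45e-07). ITGB3, the β3 chain of platelets, vessels and invasive glioma, was at 269.6, 226 and 218 CPM with siGL2 and at 185, 177 and 172 CPM with siLINC00152. It fell by 0.42 ± 0.06 (adjusted p = 2.58e-05), and 50.5% of its 75-base stretches are shared with the overlapping gene model AC068234.1, so its counts depend on how such reads were assigned.

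Per kilobase, ITGB5 relative to ITGB3 was 0.686 ± 0.0646 with siGL2 and 1.5 ± 0.00577 with siLINC00152. The ratio of ITGAV to ITGB3 went from 0.607 ± 0.0516 to 1.61 ± 0.0782, and that of ITGAV to ITGB5 from 0.888 ± 0.0666 to 1.07 ± 0.0480. Each length is a constant per gene, so the fold by which these 3 ratios rose cannot depend on it. Which chain was the more abundant does depend on the length. With the longest annotated transcript as the length, the siLINC00152 ratios were 2.02 for ITGB5 to ITGB3, 1.71 for ITGAV to ITGB3 and 0.845 for ITGAV to ITGB5. With no length, ITGB5 to ITGB3 was already at 1.01 ± 0.0947 with siGL2, and the ratios with ITGB3 also carry the limit on its shared reads. ITGB6, the epithelial partner of αV, had at most 10 counts in any library and was not tested.

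ITGB1, the β chain that joins more α chains than any other (chromosome 10, 32900319 to 33005792, minus strand), did not pass. It was at 1244, 1125 and 1193 CPM with siGL2 and at 1137, 1146 and 1182 CPM with siLINC00152 (log2 fold change -0.04, interval -0.13 to 0.05, adjusted p = 0.452). With library size as the only scaling it passed at -0.11 (adjusted p = 0.0412). Of its 10 α partners at 1 CPM or more, ITGA1, ITGA5, ITGA6 and ITGAV rose, ITGA2, ITGA4, ITGA7 and ITGA10 fell, and ITGA3 and ITGA11 did not pass. The ratio of ITGA5 to ITGB1 per kilobase was 0.650 ± 0.0252 with siGL2 and 2.03 ± 0.0808 with siLINC00152, and for ITGAV to ITGB1 it was 0.166 ± 0.00523 and 0.338 ± 0.00359. For ITGA3 to ITGB1 the ratio was 0.848 ± 0.0528 and 0.892 ± 0.0270, and those groups overlapped (exact two-sided permutation p = 0.3). Of 11 such chain ratios computed, this was the only one whose groups overlapped. The exact permutation test gave p = 0.1 for each of the others. Most of the others set a chain that rose against one that fell, so they restate calls made on the same counts. As single genes, 67.7% of all tested genes had groups that did not overlap.

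Among β chains, the ITGB1 share of summed length-scaled RNA was 68.3 ± 1.15% with siGL2 and 65.2 ± 1.17% with siLINC00152. The ITGB3 share was 18.7 ± 1.30% and then 13.7 ± 0.508%, and the ITGB5 share 12.8 ± 0.545% and then 20.7 ± 0.685%.

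The collagen-binding α chains split. ITGA1, whose pair with ITGB1 prefers the collagen of basement membranes, was at 27.4, 21.5 and 22.3 CPM with siGL2 and at 39.1, 40.5 and 42.1 CPM with siLINC00152. It rose by 0.77 ± 0.07 (adjusted p = 3e-08). ITGA2, whose pair prefers fibrillar collagen, was at 474, 415 and 424 CPM with siGL2 and at 216, 246 and 245 CPM with siLINC00152, a fall of 0.89 ± 0.06 (adjusted p = 8.33e-11). The 2 genes are 30.1 kb apart on chromosome 5, at 52787896 to 52959210 and 52989326 to 53094779, both on the plus strand. Per kilobase ITGA2 was the more abundant in every library, with a ratio of ITGA1 to ITGA2 of 0.0231 ± 0.00141 with siGL2 and 0.0735 ± 0.00355 with siLINC00152.

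ITGA10, a collagen-binding chain of cartilage, was at 12.1, 12.1 and 10.7 CPM with siGL2 and at 4.04, 4.07 and 4.16 CPM with siLINC00152. Its log2 fold change of -1.5 ± 0.09 (2.83-fold lower, adjusted p = 4e-12) was the largest fall of the 28 tested chains. ITGA11, the fibroblast receptor for fibrillar collagen, was at 34.0 ± 4.26 and 35.7 ± 0.956 CPM (log2 fold change 0.07, interval -0.08 to 0.22, adjusted p = 0.399). Its sign depended on the controls used: it passed at 0.17 without siGL2 A (adjusted p = 0.00603) and was -0.01 without siGL2 C.

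**Figure D3:**
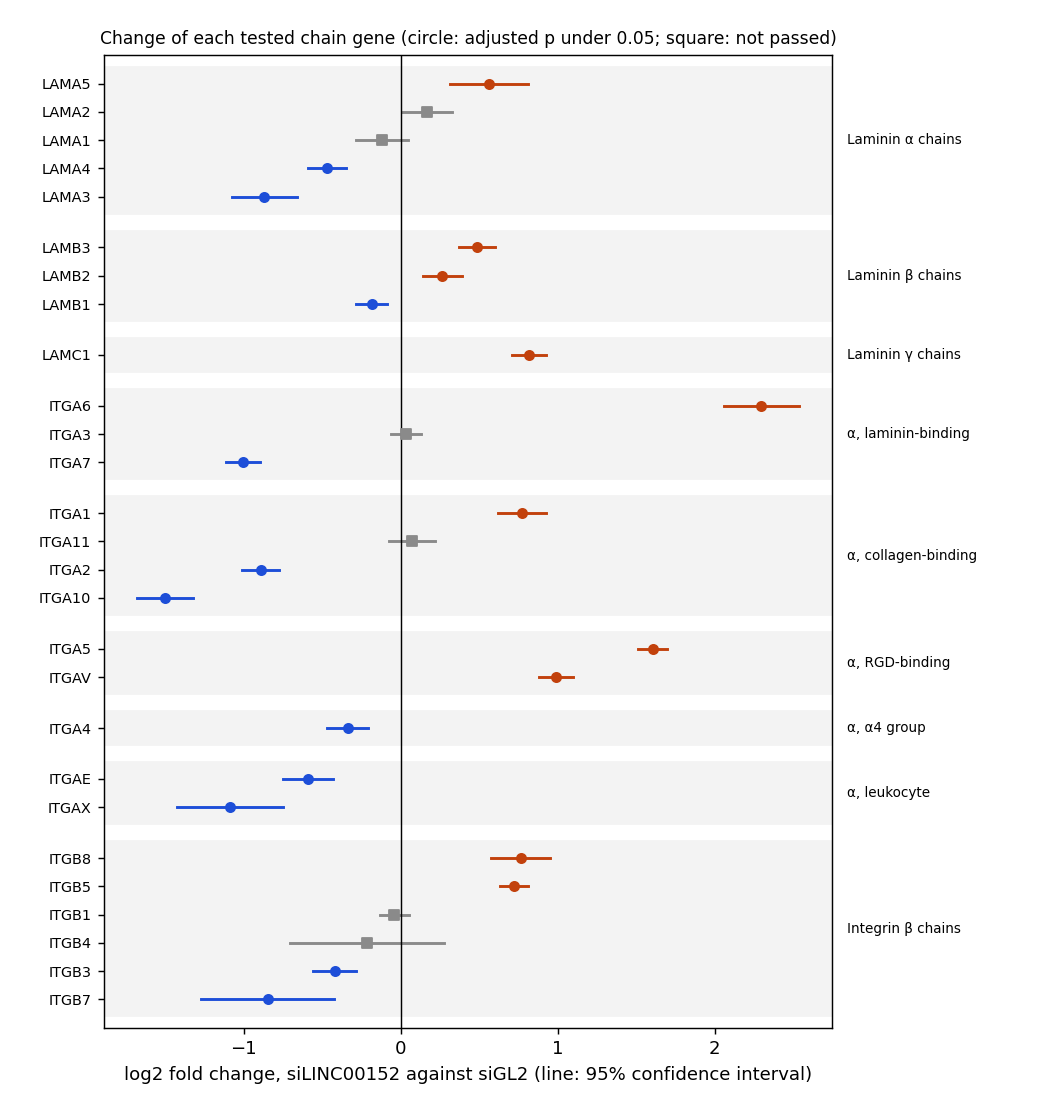
Each row is 1 tested chain gene described here, the point is the log2 fold change of siLINC00152 against siGL2 and the line its 95% confidence interval. Circles passed at an adjusted p of 0.05 and squares did not. Every class shown with more than 1 chain, apart from the RGD-binding and leukocyte α chains, holds points on both sides of 0.

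The 2 tested α chains of the leukocyte kind, ITGAE and ITGAX, fell, as did ITGA4 and ITGB7. ITGA4, whose pairs bind VCAM1 and fibronectin, was at 18.4, 19.0 and 17.7 CPM with siGL2 and at 15, 14.2 and 14.4 CPM with siLINC00152 (log2 fold change -0.34 ± 0.06, adjusted p = 7.2e-05). ITGAE, the E-cadherin-binding α chain of intraepithelial lymphocytes, was at 15.1 ± 1.54 and then 10.1 ± 0.125 CPM (-0.59 ± 0.08, adjusted p = 9.95e-07). ITGB7, the β chain for both, was at 1.13, 1.5 and 1.12 CPM with siGL2 and at 0.682, 0.619 and 0.775 CPM with siLINC00152 (-0.85 ± 0.20, adjusted p = 0.00108). For ITGB7, 42.1% of the exonic bases overlap ZNF740 on the opposite strand, and reads of the 2 genes can be told apart only if strand was used in counting.

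ITGAX, an α chain of myeloid cells, was at 2.93, 2.13 and 2.56 CPM with siGL2 and at 1.24, 1.33 and 1.01 CPM with siLINC00152, a fall of 1.09 ± 0.16 (adjusted p = 6.61e-06). Its only known partner, ITGB2, had 2 counts in 1 control library and 0 in the other 5, where 3 counts would be 0.0691 to 0.0730 CPM. The leukocyte marker PTPRC was at 0.0462 ± 0.0461 CPM with siGL2. ITGAD, which lies 10.3 kb from ITGAX on chromosome 16, had 10, 16 and 10 counts with siGL2 and 3, 2 and 5 with siLINC00152 and was left out by the filter on low counts. With all genes of at least 1 count kept, it passed lower (log2 fold change -1.72 ± 0.52, adjusted p = 0.00274). ITGAM, 22.2 kb on the other side of ITGAX, had 4, 1 and 7 counts and then 9, 10 and 10, was also filtered out, and without the filter passed higher (1.34 ± 0.53, adjusted p = 0.0264). The other untested chains, ITGA2B, ITGA8, ITGA9, ITGAL, ITGB6, LAMB4 and LAMC3, had at most 10 counts in any library.

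By receptor pair, 15 of 24 known integrins had both chains at 1 CPM or more in either group. Both chains rose in αVβ5 and αVβ8, both fell in α4β7 and αEβ7, and in αVβ3 the α chain rose while the β chain fell. In the 10 pairs with ITGB1, the α chain rose in 4, fell in 4 and did not pass in 2.

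The other genes of the pathway were taken as 5 lists of 106 symbols in all, of which 104 were in the tables. The other 2, CCN1 and CCN2, are there under their older symbols CYR61 and CTGF, which are among the 104 and are counted once each. The counts below stand beside 32.2% higher and 32.2% lower among all tested genes, whose median log2 fold change was -0.00. No list was tested as a set. Of 23 tested genes that bind integrin tails or link them to actin, 9 rose and 5 fell, and 9 stayed short of the threshold. Their median log2 fold change was 0.06, and with library size as the only scaling 9 of them fell. Kindlin-2 (FERMT2), which binds the β tail beside talin, went from 56.1 ± 0.501 to 102 ± 3.36 CPM (0.86 ± 0.05, adjusted p = 1.8e-12). Vinculin (VCL), which ties talin to actin, rose by 0.51 ± 0.05, and LIMS1, an adaptor of integrin-linked kinase, by 0.72 ± 0.05, with 16.7% of its 75-base stretches shared with LIMS3. TGFB1I1 (Hic-5) fell by 0.63 ± 0.06, TNS2 (a tensin) by 0.51 ± 0.06 and ITGB1BP1, an inhibitor of ITGB1 activation, by 0.41 ± 0.05. On the opposite strand, ASAP2 overlaps 33.1% of the exonic bases of ITGB1BP1 and AP3M1 overlaps 11.1% of those of VCL.

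Of 23 tested focal adhesion kinases and signal carriers, 10 rose, 8 fell and 5 stayed short of the threshold (median 0.10). With library size as the only scaling 6 of them rose, and also without siGL2 C and without siLINC00152 A. Focal adhesion kinase (PTK2) went from 182 ± 0.823 to 262 ± 3.01 CPM (0.52 ± 0.04, adjusted p = 7.28e-10). The small GTPases RAP1A and RAP1B, which recruit talin, rose by 0.69 ± 0.05 and 0.40 ± 0.05. The kinase FYN fell by 0.64 ± 0.04, PAK1 by 0.86 ± 0.05 and PAK2 by 0.55 ± 0.05, and 14.8% of PAK1's exonic bases overlap AP003680.1 on the opposite strand.

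Of 10 lateral partners, the membrane proteins that sit beside integrins, 5 rose, 4 fell and 1 did not pass (median 0.09). Caveolin-1 (CAV1) went from 859 ± 20.8 to 1696 ± 31.8 CPM (0.98 ± 0.04, adjusted p = 5.44e-14). Among the tetraspanins CD9 rose by 0.46 ± 0.05 and CD81 by 0.28 ± 0.04, while CD82 fell by 0.66 ± 0.05. The urokinase receptor PLAUR fell by 0.52 ± 0.04 and EMP2 by 0.35 ± 0.05.

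Of 14 tested laminin receptors outside the integrins and laminin anchors, 6 rose, 5 fell and 3 did not pass (median -0.05). Nidogen-2 (NID2), which links laminin to the collagen network, rose from 47.6 ± 2.52 to 108 ± 1.33 CPM (1.18 ± 0.05, adjusted p = 3.31e-14). NID2 shares 30.0% of its exonic bases with RTRAF on the opposite strand. The heparan sulfate proteoglycans AGRN and HSPG2, which bind laminin, rose by 0.55 ± 0.07 and 0.55 ± 0.09, with 11.7% of the exonic bases of HSPG2 overlapping LDLRAD2 on the opposite strand. Syndecan-1 (SDC1) fell by 0.85 ± 0.05, SDC4 by 0.20 ± 0.04 and dystroglycan (DAG1) by 0.20 ± 0.05.

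Of 20 tested basement membrane and integrin ligand genes other than laminins, 13 rose, 5 fell and 2 did not pass. Among all tested genes 32.2% rose and 32.2% fell. The list's median of 0.25 was the highest of the 5 lists, beside -0.00 for all tested genes. Netrin-4 (NTN4), a laminin-related protein that binds γ1 and interrupts the laminin sheet, went from 9.25 ± 1 to 30.5 ± 0.821 CPM (1.72 ± 0.07, adjusted p = 2.71e-14). Tenascin-C (TNC), a glioma matrix protein, went from 1274 ± 114 to 2510.3 ± 51.9 CPM (0.98 ± 0.05), and COL4A5, a collagen IV chain, rose by 1.10 ± 0.05. Osteopontin (SPP1), a ligand of αVβ3, was the largest fall in the lists, from 185 ± 14.6 to 53.4 ± 1.5 CPM (-1.79 ± 0.06, adjusted p = 3.94e-16). COL4A2 fell by 0.28 ± 0.08. ICAM3 fell by 0.58 ± 0.07, and 71.2% of its exonic bases overlap AC114271.1 on the opposite strand.

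**Figure D4:**
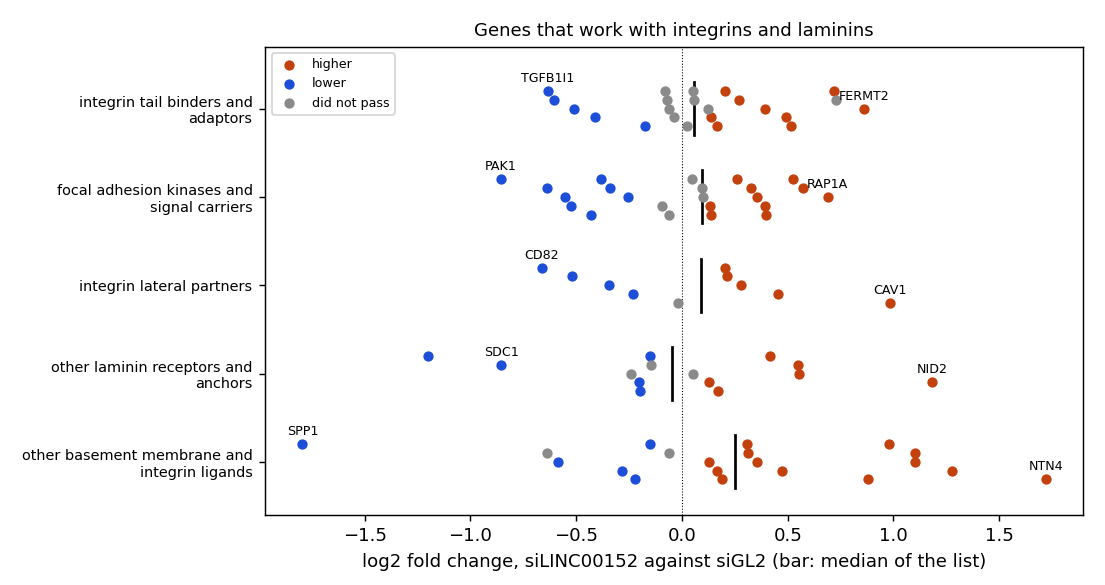
Each point is 1 tested gene of the 5 lists, placed by its log2 fold change of siLINC00152 against siGL2 and coloured by call, and the black bar is the list's median. Every list holds genes on both sides of 0, and the bar of the basement membrane and integrin ligand list lies farthest to the right, at 0.25.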

How the data were processed

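Libraries were strand-directional polyA libraries read as pairs of 75 bases, per the labels' protocols. The authors deposited 1 table of raw whole-number counts per library, with genes given by symbol. The submitters' processing notes name HISAT, HTSeq, bcl2fastq, DESeq and hg38, without versions. The sources used here do not give the annotation, the use of strand or the counting of reads that match several genes. Rows that name no gene held 0% of the counts.

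Counts were filtered with filterByExpr (minimum count 10, minimum total 15), scaled by TMM and tested with edgeR 4.0.16 (robust quasi-likelihood, no covariate, R 4.3.3, limma 3.58.1), with Benjamini-Hochberg adjustment over all 14078 tested genes. Unless stated, ± beside a log2 fold change is its SE and ± beside a level, ratio or share is the SD of 3 libraries. CPM was divided by the GENCODE 29 exonic length to compare genes. Shares and ratios were compared by exact permutation (scipy 1.17.1). Intervals cover 95%. Chains of at least 1 CPM in either group were named, apart from 1 that is counted but not reported here, and up to 3 partner genes per direction and list with the smallest p at 5 CPM or more. Members and lists were chosen with earlier results of these data known. Gene coordinates are from GENCODE 29 and sequences from RefSeq or GENCODE 29. All 38 chains were in the annotation and 26 in the promoter table. The alternatives were library size alone, RLE and upper-quartile scaling, DESeq2 1.42.0, 2 other filters, no robust fit, the replicate letter as a block, each library left out and, for shares and (added after seeing the data) ratios, another length or none. The fit was also run on simulated data in which far fewer genes were changed than passed here. That run therefore does not show the error rate of the fit in these data.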

Additional observations from a re-analysis of the deposited data

How the results depend on the processing

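All 22 chains that passed kept their direction and their call under each of the 14 alternatives in which they were tested. With library size as the only scaling, 3755 genes were higher and 5389 lower (4529 and 4529 with TMM), the median of all tested genes moved by -0.07 on the log2 scale, the integrin tail list had 9 genes lower in place of 5 and the focal adhesion kinase list 6 higher in place of 10. ITGA3 had a log2 fold change of -0.033 with that scaling, and LAMA1 passed at -0.19 (edgeR adjusted p = 0.0431). Leaving out 1 library at a time gave log2 fold changes of -0.0092 (without siGL2 C) to 0.075 (without siGL2 A) for ITGA3, and of -0.0068 (without siGL2 C) to 0.17 (without siGL2 A) for ITGA11. The number of higher focal adhesion kinase genes ranged from 6 (without siGL2 C or without siLINC00152 A) to 12 (without siGL2 A). The cause was not tested.

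The letters A to C are shared by both groups. No label says that they pair the libraries, so the main fit had no block. The deviations of same-letter libraries from their group means correlated across genes at 0.08, -0.01 and 0.07. Those of libraries with different letters correlated at -0.10 to 0.04. With the replicate letter as a block, 4571 genes were higher and 4584 lower, and the chains stayed at 10 higher and 12 lower.

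Chains of at most 16 counts in each library were left out by the filter on low counts. With all genes of at least 1 count kept, ITGAD (-1.72) and ITGAM (1.34) also passed, giving 11 chains higher and 13 lower. Other lengths for the ratios and ranks were tried after seeing the data: ITGA5 went from the third to the first place among the chains with each of the 3 lengths, while ITGAV stayed below ITGB5 in all 6 libraries by the longest transcript and above it in all 6 with no length.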
